A study of Mus musculus with 21 samples.

Results

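Complement is a set of blood and tissue proteins that mark targets for uptake or lysis. In the classical pathway C1q binds a target, the attached proteases C1r and C1s are activated, and C1s cleaves C4 and C2 into the convertase that cleaves C3; in the alternative pathway factor B takes the place of C2 in a convertase built on C3 itself. Liver makes most of the circulating protein, and within tissues macrophages are a well known source of C1q, while fibroblasts, endothelial cells, macrophages and tumor cells can make the later components. The data described here are the 9 genes of these pathways that a panel of 750 probes measured and that were listed by name: the C1q subunit genes C1qa and C1qb, the C1 protease genes C1ra and C1s1, the C1 inhibitor gene Serping1, the classical convertase genes C4b and C2, the factor B gene Cfb, and C3. The members were matched by the name of the row, with no use of their values, and all 9 were found.

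RNA came from whole tumors of LLC cells, the Lewis lung carcinoma line of mice, grown in the right flank of male C57BL/6 mice, and was counted on a NanoString panel, in which barcoded probes count RNA molecules. The wild-type sham group (9 libraries) came from wild-type mice whose tumors were injected with PBS. The wild-type agonist group (8 libraries) came from wild-type mice injected in the tumor with a STING agonist, which the series design names as cGAMP; STING is the adaptor through which cytosolic DNA induces type I interferon. The STING-deficient sham group (4 libraries) came from mice with the goldenticket allele (TMEM173gt) whose tumors received PBS, and no agonist was given to STING-deficient mice. The allele is carried by the host, so the implanted LLC cells, which all 3 groups share, keep their own copy of the gene. The labels do not say whether each library is 1 animal, give no age and no time from injection to harvest, and p-values measure only the spread between these libraries. The label gives the tissue as lung; of 12 lung epithelial markers 4 (Foxj1, Epcam, Cdh1 and Muc1) were measured, with summed values of 70.3 to 151 in sham, 117 to 696 in agonist and 45.6 to 143 in STING-deficient tumors, and the surfactant and secretory markers were not analysed here.

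Values are the deposited, scaled molecule counts, with no unit beyond that scale. Levels of different probes were not tested against each other. Where probes are ranked by abundance, summed over a list or taken as ratios, each probe's own efficiency enters. The deposited values of all probes summed to between 225810 and 888242 per library. The lowest count behind any member value, recovered from the steps between values, was 27 (C2 in STING-deficient replicate 2). Differences were tested with limma on log2(value + 1) over the 689 probes that reached a value of 20 in at least 4 libraries, with Benjamini-Hochberg adjustment over all of them, and a gene was called higher or lower at an adjusted p below 0.05. All 9 members passed that filter. Most probes of the panel read higher in the agonist libraries: the median log2 fold change of the 689 probes was 0.98 with the authors' scaling and 0.13 after TMM scaling, which centres each library on the bulk of its probes. For that reason each change is given beside the panel's own. Counts of libraries beyond another group's range are given for members only, with no such count over the panel. Agonist replicates 6, 7 and 8 were deposited with 2 decimals, fewer than the other 18 libraries, and they also stood apart in the ratios of member probes given below, so the counts of called genes are given with and without them. The Tmem173 probe read 54.2 ± 11.1 in wild-type sham tumors (SD, n = 9) and 50.4 ± 12.8 in STING-deficient tumors (SD, n = 4); goldenticket is a point mutation, so its RNA level does not check the label. Of 17 tested type I interferon response genes 15 were called lower in STING-deficient tumors, where 2.76% of all tested probes were.

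The C1q genes, which encode subunits of the recognition molecule, gave the smallest differences among the members between agonist and sham tumors. C1qa read from 813 to 1474 in the 9 wild-type sham libraries, with a median of 1014. In the 8 agonist libraries C1qa read from 570 to 5546, with a median of 1815. The 5 agonist libraries 1, 3, 6, 7 and 8 lay above every sham library, while agonist replicate 2, at 570, lay below all of them. The log2 fold change of C1qa was 0.74 ± 0.34 (SE), with a limma adjusted p of 0.0542, and it turned to -0.13 after TMM scaling. C1qb read from 855 to 1313 in sham tumors (median 1114) and from 574 to 10477 in agonist tumors (median 2384). Its log2 fold change was 0.94 ± 0.40 (SE, adjusted p 0.0424), below the panel median of 0.98, and was 0.07 after TMM scaling and 0.13 without agonist replicates 6 to 8. In STING-deficient tumors C1qa read 1403, 917, 1169 and 1403, and C1qb read 1427, 966, 1099 and 1300, all inside or just above the sham range. Fewer cells of a type and less RNA per cell cannot be told apart in whole-tumor RNA.

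C1ra and C1s1 encode the C1r and C1s proteases and lie next to each other in RefSeq on chromosome 6. C1ra read from 119 to 238 in sham tumors (median 175) and from 192 to 2857 in agonist tumors (median 532). Every one of the 8 agonist libraries read above the mean sham level, and 5 read above the highest sham library. Its log2 fold change was 1.53 ± 0.43 (SE, adjusted p 0.0053). C1s1 read from 41.6 to 151 in sham tumors (median 83.8) and from 88.2 to 3529 in agonist tumors (median 373). Its log2 fold change was 2.16 ± 0.59 (SE, adjusted p 0.0049), which is 4.47-fold. STING-deficient replicates 2 and 3 were low for both genes and replicate 4 was high: C1ra read 193, 86.6, 90.0 and 304 and C1s1 read 106, 49.4, 55.3 and 183. Mouse C1ra and C1s1 each have a near-identical copy (C1rb and C1s2), and whether the probes separate the copies is not given in the sources used here.

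RefSeq promoter windows (GRCm38.p6, 250 bases before to 50 after the start site) were at hand for 4 members. They are shown because these genes include a C1q subunit, the neighbouring protease pair and C3, which gave the largest change of the set. Both strands were searched for 3 short motifs, the interferon-stimulated response element core GAAANNGAA, the gamma-activated site (GAS) TTCNNNGAA, which reads the same on both strands, and the NF-kB form GGGNNTTTC. The motifs can overlap each other. The table holds 2 windows for C1s1, of which 1 is shown. The only match in all of them was a GAS form in C1ra, 32 bases after its start site, in capitals below. The sequences run 5′ to 3′ on each gene's own strand, at chr6:124512371-124512670 (C1ra, plus strand), chr6:124542310-124542609 (C1s1, minus strand), chr4:136886151-136886450 (C1qb, minus strand) and chr17:57228087-57228386 (C3, minus strand).
C1ra: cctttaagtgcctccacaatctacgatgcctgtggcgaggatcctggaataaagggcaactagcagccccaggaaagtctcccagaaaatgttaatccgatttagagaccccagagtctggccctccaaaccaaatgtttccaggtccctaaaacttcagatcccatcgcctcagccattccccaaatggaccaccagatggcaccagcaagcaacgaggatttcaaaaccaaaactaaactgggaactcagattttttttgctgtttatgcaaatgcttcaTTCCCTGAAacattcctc
C1s1: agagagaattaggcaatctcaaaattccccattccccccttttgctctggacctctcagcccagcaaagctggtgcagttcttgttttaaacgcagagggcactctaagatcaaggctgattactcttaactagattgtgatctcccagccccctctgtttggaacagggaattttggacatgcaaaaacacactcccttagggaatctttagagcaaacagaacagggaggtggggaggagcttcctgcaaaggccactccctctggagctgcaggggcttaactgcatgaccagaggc
C1qb: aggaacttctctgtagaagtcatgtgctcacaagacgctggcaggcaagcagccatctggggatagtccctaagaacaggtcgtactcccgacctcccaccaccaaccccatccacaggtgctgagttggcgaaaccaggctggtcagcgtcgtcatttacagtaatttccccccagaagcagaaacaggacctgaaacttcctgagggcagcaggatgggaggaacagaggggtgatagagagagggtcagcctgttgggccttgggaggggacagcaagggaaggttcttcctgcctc
C3: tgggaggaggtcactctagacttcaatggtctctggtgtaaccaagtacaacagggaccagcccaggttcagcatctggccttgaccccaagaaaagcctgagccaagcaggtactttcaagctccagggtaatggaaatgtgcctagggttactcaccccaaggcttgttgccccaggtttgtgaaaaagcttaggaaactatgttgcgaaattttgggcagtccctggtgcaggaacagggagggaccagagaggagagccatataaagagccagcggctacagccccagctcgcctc
Among the 32851 promoter windows in RefSeq, 8.56% held the interferon-stimulated element core, 8.30% the GAS form and 4.36% the NF-kB form. A match is a string of letters and not a binding site, and a window with none says only that these letters are not in it.

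Serping1 encodes C1 inhibitor, which inactivates C1r and C1s. It was the most variable member among sham tumors, with values from 236 to 1591 and a median of 464, a 6.75-fold range. Agonist tumors gave values from 202 to 13490 with a median of 2708. Agonist replicate 2 read below every sham library, whereas 5 of the 8 read above the highest. The log2 fold change was 1.86 ± 0.63 (SE, adjusted p 0.0138). The STING-deficient libraries read 549, 205, 344 and 868.

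C4b and C2 encode the parts of the classical C3 convertase. C4b ran from 120 to 526 in sham tumors (median 180) and from 67.3 to 7185 in agonist tumors (median 1191), where replicate 2 was again the lowest. On the log2 scale C4b was 1.80 ± 0.64 higher (SE, adjusted p 0.0184). Its values of 141, 136, 214 and 579 in STING-deficient tumors lay within the sham range but for the last. The mouse genome also holds C4a, a close copy of C4b, so the C4b reading is uncertain as to which copy it counts. C2, the protease subunit, ran from 36.1 to 72.3 in sham tumors (median 45.4) and from 52.3 to 1137 in agonist tumors (median 194). All 8 agonist libraries lay above the sham mean and 6 above the highest sham library, replicate 2 among them at 129. C2 was 1.96 ± 0.46 higher on that scale (SE, adjusted p 0.0029). In STING-deficient tumors C2 read 48.0, 18.3, 24.5 and 46.4, none above the sham mean.

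Cfb encodes factor B, the protease subunit of the alternative convertase, and lies near C2 on chromosome 17 with a microRNA gene between them. Sham libraries read from 75.7 to 203 for Cfb (median 101) and agonist libraries from 46.4 to 2771 (median 487). Agonist replicate 2 read below every sham library for Cfb while it read above every sham library for C2. The agonist difference of Cfb was 1.90 ± 0.57 (SE, log2, adjusted p 0.0080). STING-deficient tumors read 74.5, 23.7, 27.6 and 85.4 for Cfb, so that 3 of the 4 lay below the lowest sham library. C3, the protein on which both pathways meet, read from 161 to 475 in sham tumors (median 213) and from 298 to 5383 in agonist tumors (median 1365). No agonist library fell under the sham mean, and 6 of 8 lay above the highest sham library, replicate 2 among them at 838. C3 had the largest log2 fold change of the 9, at 2.18 ± 0.49 (SE, adjusted p 0.0028), or 4.52-fold. The STING-deficient libraries split widely for C3, with 413, 92.7, 104 and 735.

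**Figure D1:**
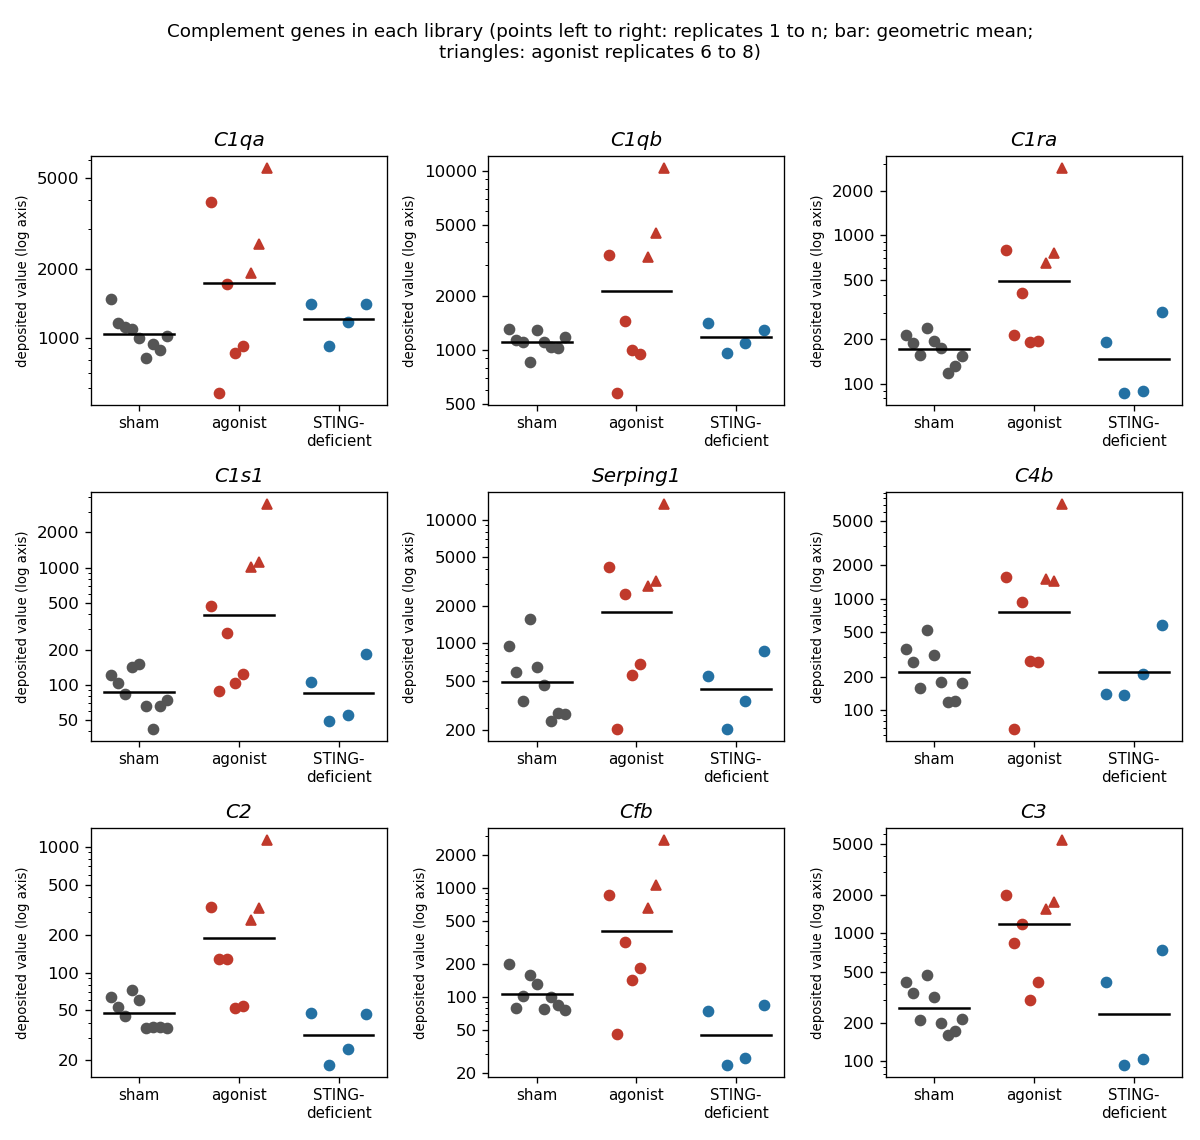
Deposited value of each complement gene in each library, on log axes, for 9 wild-type sham, 8 wild-type agonist and 4 STING-deficient sham tumors; the bar is the geometric mean and triangles are agonist replicates 6 to 8. Agonist replicate 8 is the highest library for all 9 genes, replicates 4 and 5 lie close to the sham range, and replicate 2 is the lowest agonist library for 6 genes but not for C1ra, C2 or C3.

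Counted together, 8 of the 9 members were called higher in agonist than in sham tumors with the authors' scaling, where 71.1% of all tested probes were, so the count by itself is near the background. None of the 9 was called lower by limma, at an unadjusted p under 0.05 either, where 0.726% of probes were called lower. The median log2 fold change of the 9 members was 1.86, against 0.98 for all tested probes. After TMM scaling 3 members were called higher, where 10.2% of the panel was: C1s1 by 1.30 ± 0.46 (SE, adjusted p 0.0421), C2 by 1.10 ± 0.30 (adjusted p 0.0144) and C3 by 1.31 ± 0.37 (adjusted p 0.0160), on the log2 scale. The median of the 9 was then 0.997 against 0.13 for the panel. Of the 9, 5 had an unadjusted p under 0.05, as did 285 of the 689 probes in either direction. Without agonist replicates 6 to 8 no member was called by limma with the authors' scaling, where 0.435% of the panel was called higher. In that fit 4 members had an unadjusted p under 0.05, as did 333 of the 689 probes in either direction. The log2 fold changes were then 1.54 ± 0.50 for C3 (SE) and 1.19 ± 0.37 for C2, each with an adjusted p of 0.0536, and all 9 were positive, down to 0.13 for C1qb. C1s1 read 88.2 to 471 in agonist replicates 1 to 5, and 1019 to 3529 in replicates 6 to 8, left out there.

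**Figure D2:**
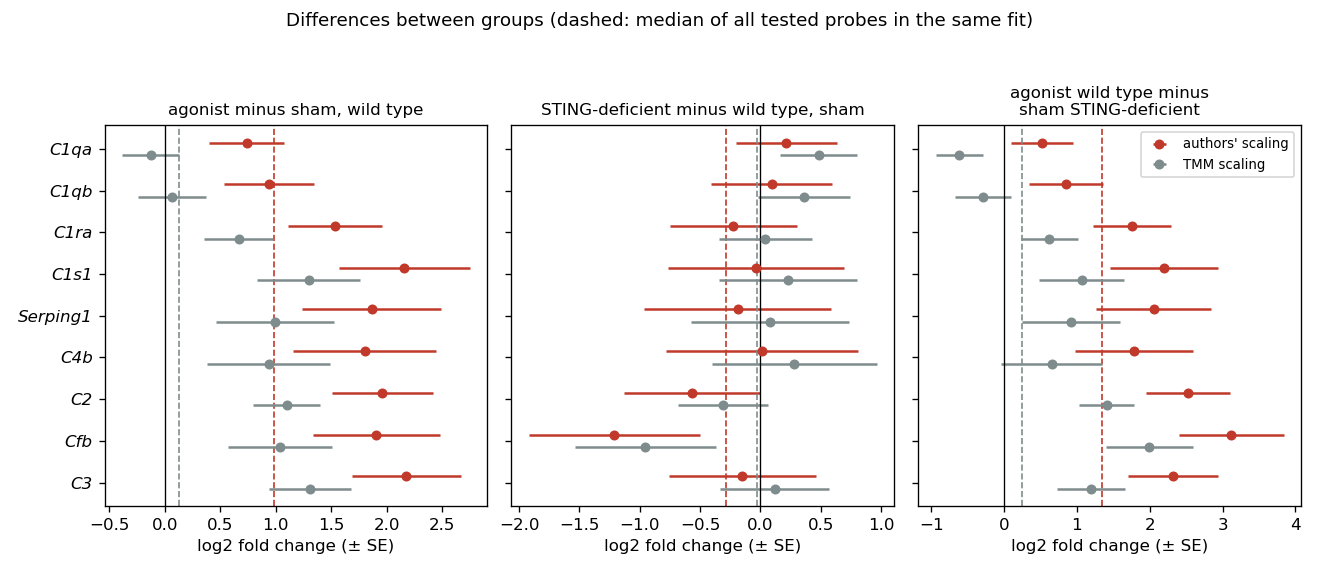
Log2 fold change of each member (point) with its SE (line) in the 3 comparisons, with the authors' scaling and after TMM scaling; dashed lines are the median of all 689 tested probes in the same fit. In the agonist comparison C1qa (0.74) and C1qb (0.94) lie at or left of the panel median of 0.98 and the other 7 members lie to its right, from 1.53 to 2.18.

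A direct comparison of C1q with the other components was made by taking, in each library, log2 of each gene minus the mean log2 of C1qa and C1qb, in which any scaling factor per library cancels apart from the added 1. For C3, C1s1, C2, C4b and Cfb together this difference, set against the sham mean, ran from 0.48 to 1.97 in the 8 agonist libraries, from -0.49 to 0.96 in the 9 sham libraries and from -1.09 to 0.39 in the 4 STING-deficient libraries. All 8 agonist libraries lay above the sham mean, and sham replicate 4, at 0.96, overlapped them. Agonist replicates 1 to 5 ran from 0.48 to 1.23 and agonist replicates 6 to 8 from 1.38 to 1.97. Replicates 6 to 8 also stood apart in C1qb over C1qa and C1s1 over C1ra, and C1qb and C1s1 both enter this difference. A shift of single probes does not cancel in it as a scaling factor does. Agonist replicate 2 held C1q at -0.91 against sham and the other 5 genes at 0.05, while the mean of all tested probes there lay at 1.35 and that of 9 neutrophil markers at 2.63, the highest of the 8 agonist libraries. Agonist replicate 8 held C1q at 2.83 and the other 5 at 4.79, with the mean of all tested probes at 1.60. The part of these differences between libraries in the result was not tested.

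By limma across the 687 probes other than C1qa and C1qb, 7 of 7 members had a positive change relative to C1q in agonist against sham tumors and none passed the threshold, where 0% of the panel did. All 7 had an unadjusted p under 0.05, as did 134 of the 687 probes. The largest were C3 at 1.34 ± 0.35 (SE, log2, adjusted p 0.0696), C1s1 at 1.32 ± 0.33 (adjusted p 0.0637) and C2 at 1.12 ± 0.28 (adjusted p 0.0637), and the smallest was C1ra at 0.69 ± 0.25 (adjusted p 0.164). The median change of the 7 was 1.07 against 0.14 for the panel. The count depended on single libraries: without agonist replicate 2 all 7 were called higher, from 0.62 for C1ra to 1.38 for C1s1, where 5.68% of the panel was. The panel median in that fit was -0.22. Without sham replicate 4, agonist replicate 4 or STING-deficient replicate 4 the count was 3, where 8, 9 and 7 of the 687 probes were called higher. Without agonist replicate 5 it was 2, where 6 of the 687 were. Without agonist replicates 6 to 8 all 7 changes stayed positive and none was called, nor was any of the 687 probes. C3 was at 1.34 ± 0.40, C2 at 0.99 ± 0.33 and C4b at 0.58 ± 0.40 (SE, log2), beside a panel median of 0.47. Of the 7, 5 then had an unadjusted p under 0.05, as did 124 of the 687 probes. Log2 C1s1 minus C1q was -3.16 to -2.52 in agonist replicates 1 to 5 and -1.59 to -1.11 in replicates 6 to 8. In sham libraries it was -4.54 to -2.75.

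**Figure D3:**
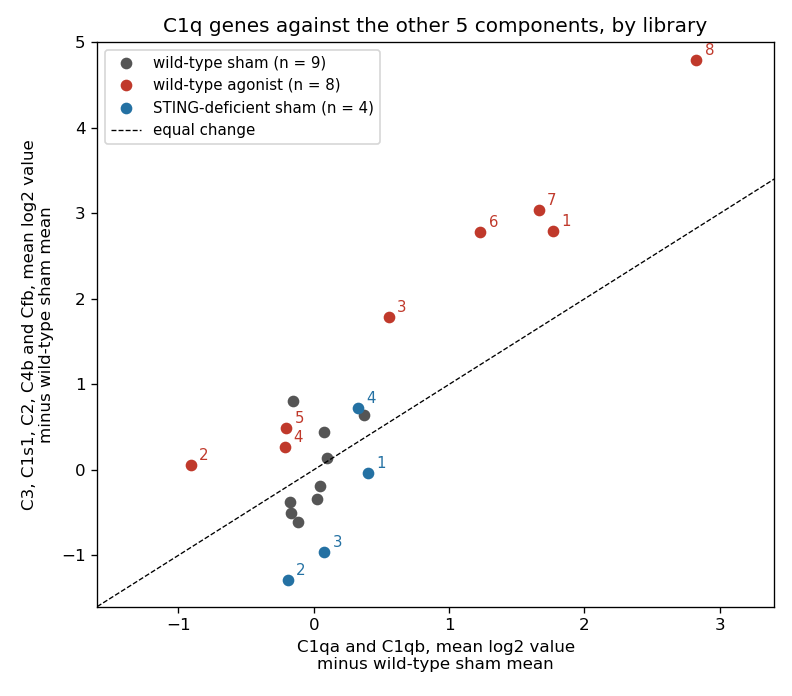
For each library, the mean log2 value of C3, C1s1, C2, C4b and Cfb (vertical) against that of C1qa and C1qb (horizontal), each minus its wild-type sham mean, with replicate numbers beside the agonist and STING-deficient points. All 8 agonist points lie above the dashed line of equal change, by 0.48 to 1.97, including replicate 2, where C1q lay at -0.91. Replicates 1 to 5 lie 0.48 to 1.23 above it and replicates 6 to 8 lie 1.38 to 1.97 above it. Of the 4 STING-deficient points 3 lie below the line, where the median change of the panel relative to C1q was -0.44.

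The STING-deficient tumors were compared with wild-type sham tumors to see how the members stood without host STING. None of the 9 was called lower or higher by limma, nor had any an unadjusted p under 0.05, where 2.76% of the tested probes were called lower and 0% higher. The largest difference was that of Cfb, at -1.21 ± 0.71 (SE, log2, adjusted p 0.620), followed by C2 at -0.57 ± 0.56 (adjusted p 0.771). The other 7 members lay between -0.22 and 0.22, with standard errors of 0.42 to 0.79 that leave room for changes of either sign. The spread in this fit is shared with the agonist libraries, where the SD of log2 Cfb was 1.87, against 0.50 in sham and 0.93 in STING-deficient tumors. Fitted on these 2 groups alone, Cfb kept its value with an SE of 0.35 and an adjusted p of 0.0391, 1 of 9 members called lower where 11.6% of the panel was. The median over all 9 was -0.15, against -0.28 for the panel. Relative to C1q the median change of the 687 probes was -0.44, and 6.26% of them were positive. Cfb lay at -1.37 ± 0.37 by that measure (SE, log2, limma adjusted p 0.0344). It was the only member of 7 called lower, where 3.64% of the 687 probes were. That call was lost without any of sham replicates 1, 3, 4, 5 or 7, or of STING-deficient replicates 2 or 3, with values from -1.61 to -1.16 over all 21 omissions. Fitted on the 2 groups alone it had an adjusted p of 0.0032, and C2, at -0.72 ± 0.23 (SE, log2), was called lower as well (adjusted p 0.0390), 2 of 7 where 19.9% of the panel was. The ratio of Cfb to C2 within a library was 1.13 to 1.84 in STING-deficient tumors and 1.52 to 3.15 in sham tumors, so the groups overlapped.

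Agonist tumors of wild-type mice were also set against sham tumors of STING-deficient mice, which differ in both treatment and genotype. This comparison shares its agonist libraries with the first and its STING-deficient libraries with the preceding one. Of the 9 members 6 were called higher, where 73.6% of the panel was, led by Cfb at 3.12 ± 0.72 (SE, log2, adjusted p 0.0015), C2 at 2.53 ± 0.57 (adjusted p 0.0013) and C3 at 2.32 ± 0.62 (adjusted p 0.0035). C1qa at 0.52 ± 0.43, C1qb at 0.85 ± 0.51 and C4b at 1.79 ± 0.81 (adjusted p 0.0515) were not called. After TMM scaling C2, Cfb and C3 were called, 3 of 9 where 19.3% of the panel was, with C1qa at -0.61 and C1qb at -0.29. All 8 agonist libraries exceeded all 4 STING-deficient libraries in C2, and 7 of 8 did in Cfb, the exception being replicate 2. The panel median in this comparison was 1.35, and the share of all probes that separated so was not counted. Relative to C1q 6 of 7 members were called higher, where 18.5% of the panel was, from Cfb at 2.43 ± 0.38 (SE, log2, adjusted p 3.85e-05) to C1ra at 1.07 ± 0.32 (adjusted p 0.0195), with C4b at 1.10 ± 0.47 not called (adjusted p 0.104). Without STING-deficient replicate 2 or 3 that count was 2, where 69 and 91 of the 687 probes were called higher. With no library left out the panel median relative to C1q was 0.67. Without agonist replicates 6 to 8 4 of the 9 members were called higher with the authors' scaling (C1ra, C2, Cfb and C3), where 53.8% of the panel was, and 4 of 7 relative to C1q, where 29% was.

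Members whose probes could be paired by place or function were followed as ratios within a library. A ratio carries each probe's own efficiency, so only its change between libraries can be read. C1qb over C1qa was 1.73 to 1.89 in agonist replicates 6, 7 and 8 and 0.79 to 1.37 in the other 18 libraries. C1s1 over C1ra was 1.24 to 1.55 in the same 3 libraries and 0.35 to 0.78 in the others, agonist replicates 1 to 5 included (0.42 to 0.67). C4b over Serping1 (0.45 to 0.53 in the 3 libraries, 0.26 to 0.67 in the others) and Cfb over C2 (2.44 to 3.22 and 0.36 to 3.43) overlapped. What sets the 3 libraries apart was not tested.

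**Figure D4:**
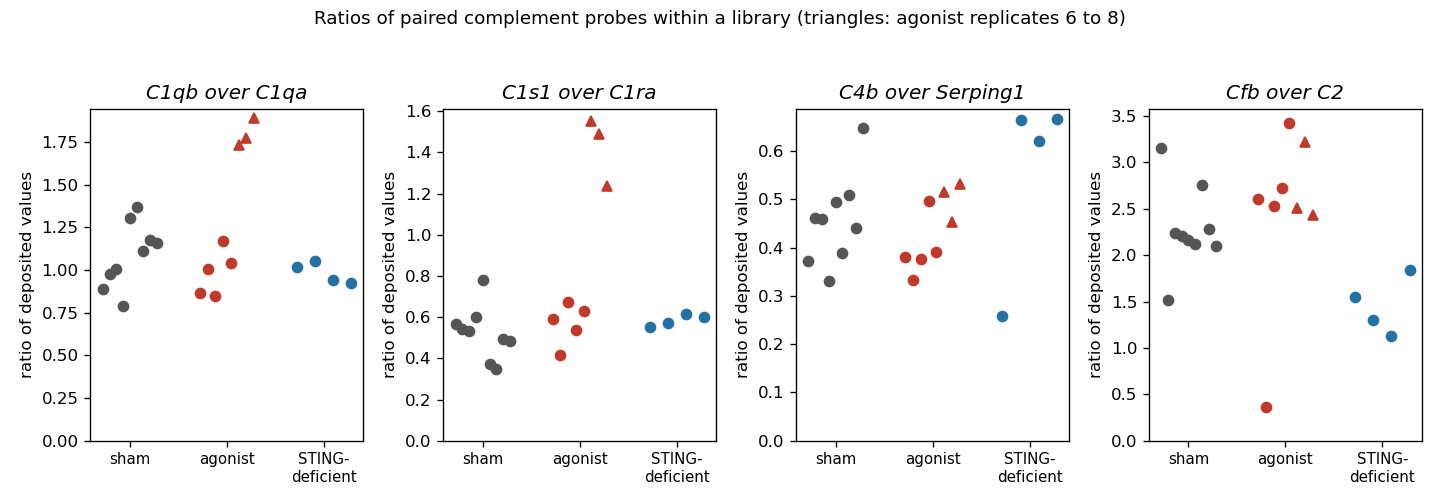
Ratio of 2 member probes in each library, linear axes from 0, by group; triangles are agonist replicates 6 to 8. The triangles lie above all other points for C1qb over C1qa (1.73 to 1.89) and C1s1 over C1ra (1.24 to 1.55) and within them for C4b over Serping1 and Cfb over C2; the lowest Cfb over C2 value, 0.36, is agonist replicate 2.

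The members also differed in how steady they were among wild-type sham tumors. After removing each library's panel mean, the SD of log2 values over the 9 sham libraries was 0.22 for C1qb and 0.25 for C1qa, lower than that of all but 18.0% and 26.7% of the 689 probes. It was 0.85 for Serping1, 0.66 for C4b and 0.55 for C1s1, and 97.0%, 90.9% and 81.7% of probes had a lower SD. The residual patterns over the 21 libraries, with panel mean and group mean removed, tied C4b most closely to Serping1 (Pearson r 0.96) and C1ra to C1s1 (r 0.92), and the weakest pair was C1qb with C3 (r 0.49). The probes outside the set most like C1qa were Cd48, Apoe and Ly86 (r 0.94, 0.93 and 0.91), and those most like C1qb were Cd48, Ly86 and Ctsh (r 0.94, 0.94 and 0.93). For C4b and Serping1 they were the collagen genes Col1a1 and Col3a1 and the receptor gene Tgfbr2, with Col1a1 at r 0.94 and 0.96. C3 was most like Ccl1, Dpp4 and Hsd11b1 (r 0.88, 0.87 and 0.85), C2 most like C3ar1 (r 0.90), Cfb most like Cd48 (r 0.94), C1s1 most like Txk (r 0.93) and C1ra most like Ccl1 (r 0.93). The 21 points are libraries of differing depth, with no test made, and 40.1% (C3) to 95.7% (C1qb) of a member's squared deviations came from the 8 agonist libraries, so for most members they describe mainly how agonist libraries differ from each other.

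Cells that can make these components were followed through marker lists, whose calls after agonist are to be read against the 71.1% of all tested probes called higher. The same lists were also counted after TMM scaling and without agonist replicates 6 to 8, an alternative chosen after seeing the data. The summed values of 16 macrophage markers ran from 11871 to 20372 in sham tumors and from 13264 to 114225 in agonist tumors, and 12 of the 16 were called higher (median log2 fold change 1.04). After TMM scaling none was called higher by limma (5 had an unadjusted p under 0.05 and a positive change) and 2, Cd163 and Mrc1, were called lower, where 16.4% of the panel was. Over the panel 285 of the 689 probes then had an unadjusted p under 0.05 in either direction. Among the most abundant, Lyz2 differed by 1.01 ± 0.36, Apoe by 1.66 ± 0.43 and Cd68 by 0.87 ± 0.24 (SE, log2), while Cd163, a scavenger receptor of macrophages, differed by 0.11 ± 0.15 (adjusted p 0.521) and by -0.76 after TMM scaling.

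The summed values of 8 fibroblast and pericyte markers ran from 22576 to 45048 in sham tumors, from 23482 to 212728 in agonist tumors and from 26419 to 46309 in STING-deficient tumors. Of the 8, 4 were called higher after agonist (median 1.01), Col1a1 among them at 1.80 ± 0.62 (SE, log2, adjusted p 0.0156), while Vim at -0.18 ± 0.15 and Fn1 at 0.08 ± 0.22 were not. Col3a1, the most abundant of the list in sham tumors, was not called either, at 1.03 ± 0.53 (adjusted p 0.0801). After TMM scaling none of the 8 was called higher by limma, at an unadjusted p under 0.05 either, and Fn1 at -0.79 and Vim at -1.04 were called lower (adjusted p 0.0139 for each). The 8 endothelial markers were each called higher with the authors' scaling (median 1.07) and none was after TMM scaling (median 0.22), at an unadjusted p under 0.05 either. The 4 measured lung epithelial markers were called higher as well (median 1.20), and none was after TMM scaling (median 0.35). Of 11 T and NK cell markers 10 were called higher (median 1.56), and 5 after TMM scaling (median 0.70). Of 9 neutrophil markers 7 were called higher (median 1.31), and 1 after TMM scaling (median 0.44). After TMM scaling 10.2% of the panel was called higher. No marker of these lists was at 0 in any library, and their part in the members' changes was not tested.

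Interferon response genes were called higher after agonist in 15 of 15 of the interferon-gamma list and 17 of 17 of the type I list with the authors' scaling, with median log2 fold changes of 1.35 and 1.35. After TMM scaling 1 of 15 and 3 of 17 were called higher, with medians of 0.49 and 0.49. In STING-deficient tumors the medians with the authors' scaling were -0.38 and -2.49, against -0.15 for the members. Without agonist replicates 6 to 8 no gene of the macrophage, fibroblast, endothelial, lung epithelial or either interferon list was called higher after agonist by limma, where 0.435% of the panel was. The numbers with an unadjusted p under 0.05 and a positive change were then 8 of 16, 1 of 8, 1 of 8, 1 of 4, 12 of 15 (interferon-gamma) and 11 of 17 (type I), and the medians 0.62, 0.23, 0.44, 0.70, 1.05 and 0.87, beside 0.93 for the members and 0.67 for the panel. For T and NK cell and neutrophil markers they were 10 of 11 and 6 of 9, with medians of 1.27 and 1.05 and none called. Over the panel 333 of the 689 probes had an unadjusted p under 0.05 in either direction.

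Of 20 other complement genes tested 14 were called higher and none lower by limma after agonist (none lower at an unadjusted p under 0.05 either), with a median log2 fold change of 0.98, equal to the panel's. After TMM scaling 1 was called higher (C8a) and 2 lower (C1qbp and Clu), and without agonist replicates 6 to 8 none was called by limma (9 had an unadjusted p under 0.05, all higher). In that last fit 333 of the 689 probes had an unadjusted p under 0.05 in either direction. The largest differences were C8a, a subunit of the membrane attack complex, at 1.79 ± 0.41 (SE, log2, adjusted p 0.0028) from a low level of 6.19 ± 3.20 in sham tumors (SD, n = 9), and C3ar1, the receptor of the C3a fragment, at 1.52 ± 0.44 (adjusted p 0.0069). They were followed by Cd55, a convertase inhibitor on cell surfaces, at 1.40 ± 0.45, Cfi, the protease that inactivates C3b and C4b, at 1.34 ± 0.35, Itgam, a chain of complement receptor 3, at 1.26 ± 0.34, and C7, another membrane attack component, at 1.21 ± 0.50. Clu, the most abundant of the list and an inhibitor of membrane attack, differed by -0.78 ± 0.38 (adjusted p 0.0728) and C1qbp, a C1q binding protein, by -0.28 ± 0.15 (adjusted p 0.0894). None of the 20 was called between STING-deficient and wild-type sham tumors by limma, and 1 had an unadjusted p under 0.05, Cfd (factor D, the protease that cleaves factor B), at -2.15 on the log2 scale (adjusted p 0.208); without agonist replicates 6 to 8 it was called lower (adjusted p 0.0334), 1 of 20 where 3.19% of the panel was. It is named here because it was the only such gene, chosen after its value was seen.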

How the data were processed

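The authors deposited a matrix of NanoString signal values on a linear scale, already scaled per library, and a file per library that equals it to within rounding; which software and control probes set the scale is not given in the sources used here. Per the labels' protocols, total RNA was extracted from whole tumors with TRIzol. Each library's deposited signal moves in equal steps of 0.65 to 1.41 (99.4% to 100% of values within 0.1 of a step, among values below 300 steps), and the counts so recovered summed to 256573 to 763978. Some libraries held no value of 1 step, so a common multiple is possible and no count test was run.

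Values were analysed as log2(value + 1); the added 1 shrinks the change of low genes. limma 3.58.1 (R 4.3.3, eBayes with trend and robust) fitted 3 group means to 21 libraries, two-sided, with Benjamini-Hochberg adjustment over the 689 of 750 probes at 20 or more in at least 4 libraries; 2 blank cells (Hif1a) stayed missing. TMM and median-of-ratios factors were computed from the matrix. The fit relative to C1q used the other 687 probes. The test was checked on simulated data with independent probes and each probe's sham spread in all 3 groups. That check does not cover the wider spread of the members in agonist libraries. All adjusted p-values are limma's.

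The members, gene lists and tests were chosen with earlier results of these data known. Members are all named. Other complement genes are named when among the 6 largest changes called after agonist or the 3 most abundant in sham tumors, genes of other lists when among the 4 most abundant or the 3 with the smallest adjusted p relative to C1q, and probes most like a member when among its first 3. Other list genes named were chosen after values were seen. Sequences are from RefSeq promoters, in which 4 of 9 members matched by symbol.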

Additional observations from a re-analysis of the deposited data

How the results depend on the processing

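With the authors' scaling 8 members were called higher in agonist than in sham tumors, where 490 of 689 probes were. The count was 3 after TMM scaling, 2 after median-of-ratios scaling, 0 without agonist replicates 6 to 8, 0 without them and with TMM, and 7 to 9 when a single library was left out. Of the 689 probes 70, 62, 3 and 0 were called higher in these fits, in that order, and 433 to 539 without single libraries. C1qa turned from 0.74 to -0.13 (TMM), -0.15 (median-of-ratios) and -0.36 (TMM without replicates 6 to 8), and C1qb from 0.94 to -0.49 in the last. No member was called in STING-deficient against sham tumors, except 1 lower (Cfb) when only these groups were fitted, where 80 of 689 probes were. Values near 0 changed sign there under TMM, median-of-ratios, and TMM without replicates 6 to 8: C1ra to 0.042, 0.11 and 0.056, C1s1 to 0.23, 0.30 and 0.24, C3 to 0.12, 0.19 and 0.13, and Serping1 to 0.078, 0.15 and 0.091. Leaving out single libraries gave -0.57 to 0.027 for C1ra, -0.40 to 0.23 for C1s1, -0.70 to 0.29 for C3, -0.45 to 0.25 for C4b and -0.53 to 0.16 for Serping1, and relative to C1q -0.79 to 0.057 for C3 and -0.54 to 0.16 for C4b. Against STING-deficient tumors the 6 members higher after agonist became 3 (TMM), 2 (median-of-ratios) and 1 (TMM without replicates 6 to 8), and 5 to 8 without single libraries. In the 3 rescaled fits C1qa became -0.61, -0.70 and -0.86, C1qb -0.29, -0.38 and -0.86, and C4b -0.13 in the last. Of 689 probes 507 were called higher there with the authors' scaling. The number was 133, 116 and 79 in the rescaled fits and 419 to 542 without single libraries.

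Relative to C1q, 0 members were called higher after agonist, as were 0 of 687 probes. The count was 1 with a filter of 50 (5 of 542 probes), 2 relative to C1qa alone (6 of 688) and 3 relative to the macrophage list (44 of 689). It was 0 to 7 without single libraries (0 to 39 probes). The 1 lower in STING-deficient tumors (25 of 687 probes) became 0 with a pseudocount of 10 (20 of 687), relative to C1qb alone (20 of 688) or to the macrophage list (23 of 689). It became 2 with only these groups fitted (137 of 687), and 0 to 1 without single libraries (18 to 63 probes). Relative to the macrophage list C1s1 was at 0.10 and C4b at 0.15. The 6 higher against STING-deficient tumors (127 of 687 probes) became 3 relative to C1qb alone (57 of 688) or the macrophage list (119 of 689). They became 2 with only these groups fitted (44 of 687), and 2 to 7 without single libraries (69 to 184 probes). The cause was not tested. Pseudocount, filter and fewer groups otherwise kept the member counts within 1.5 times.

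Replicate numbers in the titles were not used to pair the samples. Of 8 agonist libraries 2 correlated above 0.1 with the sham library of their number (r -0.20 to 0.29), and 0 correlated best with it. Of 4 STING-deficient libraries 2 correlated above 0.1 with it (r -0.16 to 0.61) and 2 correlated best with it, so pairing there is not settled. With the replicate block the members called stayed at 8 after agonist, where 421 of 689 probes were called higher. C1s1 was then at 0.33 in STING-deficient tumors. Relative to C1q the count lower was 0, where 19 of 687 probes were. Also relative to C1q, the count higher against STING-deficient tumors was 3, where 76 of 687 probes were. Both planned count tests were not run, since raw counts could not be settled. Depth limits C2 most, at 27 counts in its lowest library.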
